A study of Mus musculus with 18 samples.

Results

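Hippocampus was compared with cortex in young mice kept under chronic intermittent hypoxia (CIH), a treatment in which the oxygen supply falls and returns in cycles. The comparison used 6 of the 18 arrays of the study, the 3 titled CIH hippocampus and the 3 titled CIH cortex. The groups follow the sample titles, since the text on the series design describes the CIH mice as CCH treated. The mice were of the outbred CD-1 strain, labelled male and aged 16 days, and CIH began on postnatal day 2 and lasted 2 weeks. The other 12 arrays held the same tissues from control mice aged 16 days, for which no treatment is given, and from CD-1 mice exposed to chronic consistent hypoxia (CCH) over the same 2 weeks, with 3 arrays in each of the 6 groups. They were used here to ask which regional differences seen under CIH were also present in control mice and under CCH. No source used here gives the oxygen levels or the cycle lengths. Whole pieces of tissue were measured, so fewer cells of a type and less RNA per cell cannot be told apart. The labels do not say that the replicates were separate animals, and the p-values then measure only the spread between samples, which may be technical. Each slide carried 1 array of every group at a fixed position, so position on the slide and group cannot be told apart.

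The hippocampus is a folded part of the cortex of the temporal lobe that is needed to form memories of events and places. Its main path runs from the granule cells of the dentate gyrus to the pyramidal cells of CA3 and on to those of CA1, and the dentate gyrus keeps making granule cells after birth. The neocortex is built of layers, each with its own projection neurons, whose identity is set by transcription factors during development. In the third week after birth both regions form synapses and begin to myelinate, and the pyramidal cells of CA1 are known to be sensitive to a lack of oxygen.

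The arrays carried 46120 probes, of which 14664 were detected on at least 3 of the 18 arrays and tested. Names could be given to 4402 of these probes, for 3975 genes, so most of what was measured stays without a gene name. The 6 CIH arrays had a median raw intensity of 73.0 to 94.3 and 12520 to 13786 detected probes each. Replicate arrays correlated at r = 0.988 to 0.995 in CIH cortex and at 0.991 to 0.992 in CIH hippocampus. The first principal component, with 41.5% of the variance, separated all hippocampus from all cortex arrays. On 2 arrays the sex-linked genes did not match the labelled sex. Xist, a noncoding RNA of the inactive X chromosome, lay at 10.01 log2 units on CIH cortex 2 and at 9.36 on CIH hippocampus 2, against 6.54 to 6.57 on the other 4 CIH arrays. Kdm5d, a gene of the Y chromosome, was not detected on those 2 arrays and was detected on the other 4. In the whole study 5 arrays had high Xist, all of them from hypoxia groups. Beside the 2 CIH arrays these were CCH cortex 2, CCH cortex 3 and CCH hippocampus 3, so high Xist was not balanced between the CCH regions. Counts are therefore also given without these 5 arrays, and each CIH group then holds 2 arrays.

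Under CIH, 1564 of the 14664 probes (10.7%) differed between hippocampus and cortex at an adjusted p under 0.05. Of these, 678 (4.62%) were higher in hippocampus and 886 (6.04%) were higher in cortex. They named 448 genes, 212 higher in hippocampus and 236 higher in cortex, and 203 probes differed by more than 2-fold. The 3 hippocampus arrays lay entirely above or below the 3 cortex arrays for 28% of all probes tested. The median difference over all tested probes was 0.0034 on the log2 scale, which quantile normalisation sets near 0. Without the 5 arrays with high Xist, 954 probes were called. On the series values deposited by the authors, 191 were called. Only 128 gene results under CIH were followed through the alternatives. Of those that could be tested on the deposited values, 33 held and 56 lost significance with their direction kept. Apart from those deposited values, the 30 genes named for the size of their difference kept their call when any single CIH array was left out and without the arrays with high Xist.

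The genes most enriched in hippocampus under CIH included markers of its cell fields. Fibcd1, a membrane receptor that marks CA1 pyramidal cells, stood at 11.54, 11.56 and 11.33 log2 units on the 3 hippocampus arrays and at 8.52, 8.53 and 8.10 on the 3 cortex arrays. That was a difference of 3.10 (95% interval 2.55 to 3.64), or 8.54-fold, with an adjusted p of 1.57e-06. C1ql2, a secreted synaptic organiser made by dentate granule cells, read 10.79, 10.84 and 10.68 in hippocampus and 8.53, 8.44 and 8.71 in cortex, a difference of 2.21 (1.87 to 2.56). All 6 arrays had both genes above background, and the groups were far apart. Prox1, the homeodomain factor that sets granule cell identity, read 8.73, 8.30 and 8.35 in hippocampus and only 6.91, 6.85 and 6.88 in cortex, close to the detection limit. Its difference was 1.58 (1.33 to 1.83), or 2.99-fold. Zbtb20, a zinc finger factor needed to form CA1, read 9.83, 9.54 and 9.42 against 8.04, 8.59 and 7.94, a difference of 1.41 (1.02 to 1.80), with the widest spread among these 4 genes on the cortex side.

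The other genes among the 15 with the largest rise have varied roles. Serpina3n, an inhibitor of serine proteases, was 4.42-fold higher in hippocampus (11.26, 11.04 and 10.92 against 9.18, 8.52 and 9.09). Olfml2b, an olfactomedin-like matrix protein, was 4.31-fold higher (9.05, 9.09 and 9.20 against 7.06, 6.97 and 6.98). Its 3 arrays lay close together in both regions. Dcn, the matrix proteoglycan decorin, was 3.19-fold higher on one probe (10.90, 11.04 and 11.09 against 9.48, 9.28 and 9.25) and had a log2 difference of 1.40 on another. Dcn is also made by meningeal fibroblasts, of whose 18 listed markers 3 were measured. The other 2 did not pass the test: Col1a1 had a difference of 0.18 and Mgp one of −0.42. Tgfb2, a growth factor that signals through Smad proteins, was 3.64-fold higher, and Lpl, which frees fatty acids from lipoproteins, was 3.24-fold higher. Pcdh20, a protocadherin of cell contacts, was 4.04-fold higher, Dgkg, a diacylglycerol kinase, 3.98-fold, and Nrp1, a receptor for class 3 semaphorins and VEGF, 3.35-fold. Golm1, a Golgi membrane protein, was 3.16-fold higher. Fgf13, which binds voltage-gated sodium channels inside the cell, was 2.84-fold higher on one probe and had a difference of 0.86 on its second probe, so its size depends on the probe. Il16, a secreted cytokine precursor, was detected on all 3 hippocampus arrays and on none of the 3 cortex arrays, and was at least 2.44-fold higher in hippocampus.

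The largest difference of all named genes went the other way. Trbv31, a variable segment of the T cell receptor beta locus, read 6.93, 7.14 and 7.30 in hippocampus and 10.74, 10.95 and 10.81 in cortex, a difference of −3.71 (−3.99 to −3.44), or 13.1-fold, with an adjusted p of 2.74e-10. Its signal in hippocampus was just above background. Hs3st2, which adds sulfate to heparan chains, was 4.23-fold higher in cortex (9.15, 9.43 and 9.16 against 11.13, 11.45 and 11.40). Cobl, an actin nucleator of dendrites, was 4.20-fold higher in cortex (7.39, 7.53 and 7.68 against 9.51, 9.62 and 9.67). Mef2c, a transcription factor of developing cortical neurons, was 4.03-fold higher in cortex (9.79, 9.82 and 10.20 against 11.77, 12.03 and 12.05). Efna5, a membrane-bound ephrin that guides axons, was 3.89-fold higher in cortex, and Cckbr, the brain receptor for cholecystokinin, 3.73-fold. In each of these genes the 3 hippocampus arrays lay below all 3 cortex arrays. Further down the same ranking stood Cpne9, a calcium-binding copine (3.43-fold), Pcp4l1, a small protein related to the calmodulin-binding Pcp4 (3.21-fold), Zfhx3, a homeodomain factor (2.66-fold), and Stard8 (2.47-fold). Gucy1a1, a subunit of the nitric oxide receptor guanylate cyclase, was 2.84-fold higher in cortex on one probe but had a difference of only −0.31 on another.

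**Figure D1:**
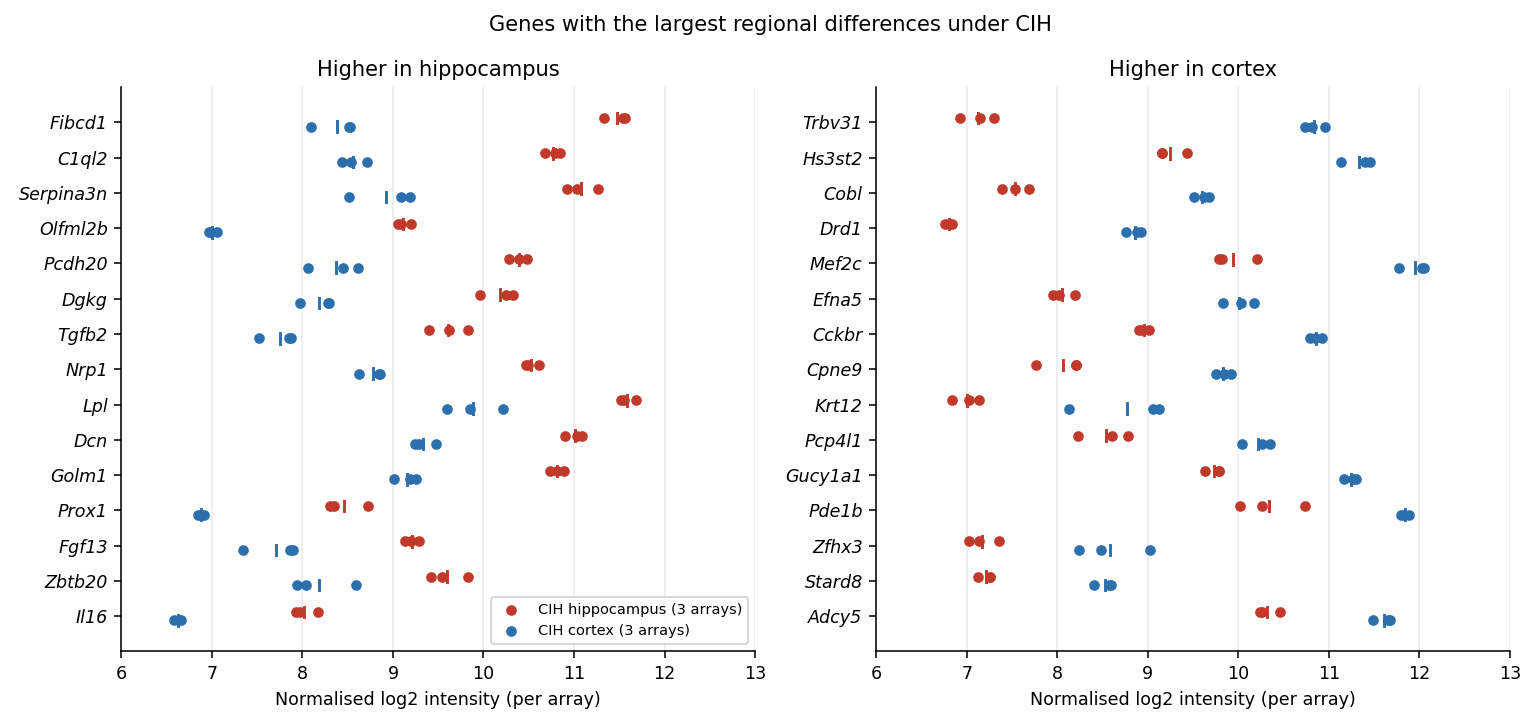
Normalised log2 intensity on each of the 6 CIH arrays for the 15 named genes most enriched in hippocampus (left) and the 15 most enriched in cortex (right). Each dot is 1 array (red hippocampus, blue cortex) and each vertical tick is the mean of 3 arrays. In all 30 genes the red and blue dots do not overlap, and the gap is widest for Trbv31 (log2 difference −3.71) and Fibcd1 (3.10).

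The question of persistence was asked first by counting. In control mice 1711 probes (11.7%) differed between the regions, 808 (5.51%) higher in hippocampus and 903 (6.16%) higher in cortex. Under CCH 2091 (14.3%) did, 1002 (6.83%) and 1089 (7.43%) in these directions. The regions did not overlap for 26.8% of probes in control and 31.2% under CCH. The 3 comparisons share no array, but they share the estimate of each probe's spread, so their calls are not independent. Of the 1564 probes called under CIH, 1120 were also called in the same direction in control, which is 71.6% of the CIH calls and 65.5% of the control calls. The same direction was called under CCH for 1074 of them (68.7% of the CIH calls and 51.4% of the CCH calls). In all 3 conditions 938 probes (60.0%) were called the same way, for 258 named genes. Persistence was 62.2% among the probes higher in hippocampus and 58.2% among those higher in cortex. The sign alone was the same in control for 1550 of the 1564 probes (99.1%), and no probe was called in opposite directions under CIH and in control. Without the arrays with high Xist, 536 probes were called the same way in all 3 conditions. With only the groups compared in each fit, the spread was not shared and these counts were lower. Of 1243 probes then called under CIH, 698 were called the same way in control and 508 in all 3 conditions.

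The 30 genes named for size show how close the conditions were. All 15 genes higher in hippocampus were called in the same direction in control and under CCH. Of the 15 higher in cortex 14 were, Krt12 being the exception. Fibcd1 differed by 3.10 under CIH, 3.29 in control and 3.22 under CCH on the log2 scale. Trbv31 differed by −3.71, −3.62 and −3.51, and Cckbr by −1.90, −1.91 and −1.91. For these the difference between CIH and control was small against its interval, which ran from −0.96 to 0.58 for Fibcd1, from −0.48 to 0.30 for Trbv31 and from −0.48 to 0.49 for Cckbr. Some hippocampal genes had a smaller regional gap under CIH than in control without passing the test after adjustment. C1ql2 differed by 2.21 under CIH and by 2.70 in control (interval of the change −0.98 to 0.00), Lpl by 1.70 and 2.06, Bok by 1.28 and 1.58, and Olfml2b by 2.11 and 2.33. In others the gap was larger under CIH, as for Nrp1 (1.75 and 1.57), Fgf13 (1.51 and 1.25), Zbtb20 (1.41 and 1.16) and Dcn (1.67 and 1.58). The adjusted p for the change was 0.9995 in each.

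**Figure D2:**
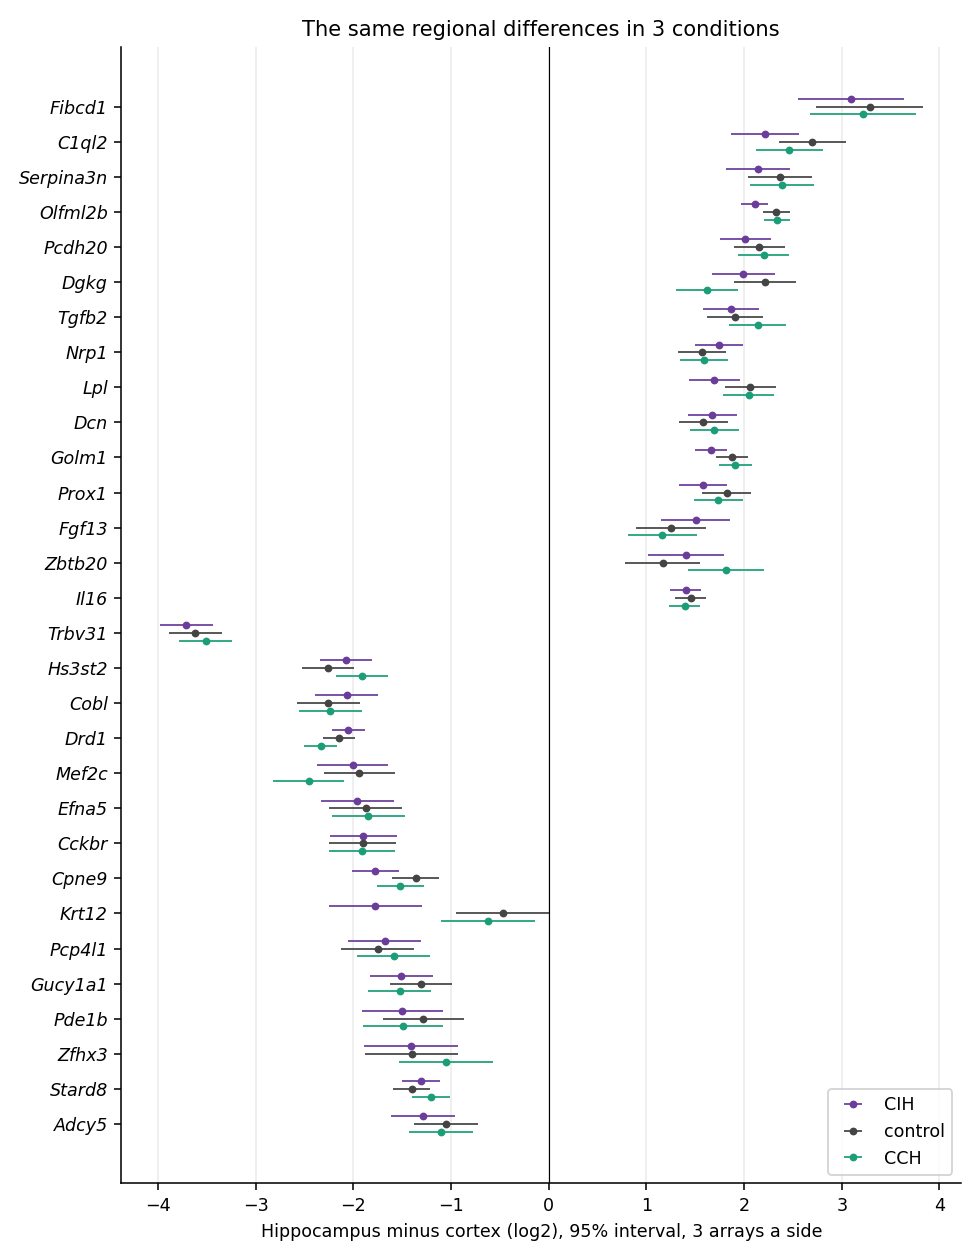
Regional difference (hippocampus minus cortex, log2) of the 30 genes named for size under CIH (purple), in control (grey) and under CCH (green). Points are estimates from 3 arrays a side and bars are 95% intervals. The 3 estimates of a gene lie on the same side of 0 throughout, and Krt12 (−1.77 under CIH, −0.47 in control) is the gene whose CIH interval lies clear of the others.

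The change in the regional difference was then tested itself, as the CIH difference minus the control difference. With limma no probe of 14664 was called, the smallest adjusted p was 0.9995, and 383 probes (2.61%) had an unadjusted p under 0.05. That count was 0 under every processing alternative and with any single array left out. A missed threshold does not show that the differences were equal, so the intervals are given too. Their median half-width was 0.266 on the log2 scale. For 1522 of the 1564 probes called under CIH (97.3%) the interval of the change lay within 1 log2 unit of 0, that is within 2-fold, and for 1050 (67.1%) it lay within 0.5. Over all tested probes these shares were 96.4% and 71.3%. Only 203 of the 1564 probes differed by more than 2-fold under CIH, so these bounds still allow the loss of many differences. The 444 probes called under CIH and not in control had the same sign in control in 96.8% of cases, with a median size of 0.36 under CIH and 0.18 in control, and 244 had an unadjusted p under 0.05 there. The 591 probes called in control and not under CIH had the same sign under CIH in 97.6%, with a median size of 0.37 in control and 0.19 under CIH, and 342 had an unadjusted p under 0.05 there. Choosing probes by their call makes them larger in the condition they were chosen in, and the 2 sets moved by like amounts in opposite directions.

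**Figure D3:**
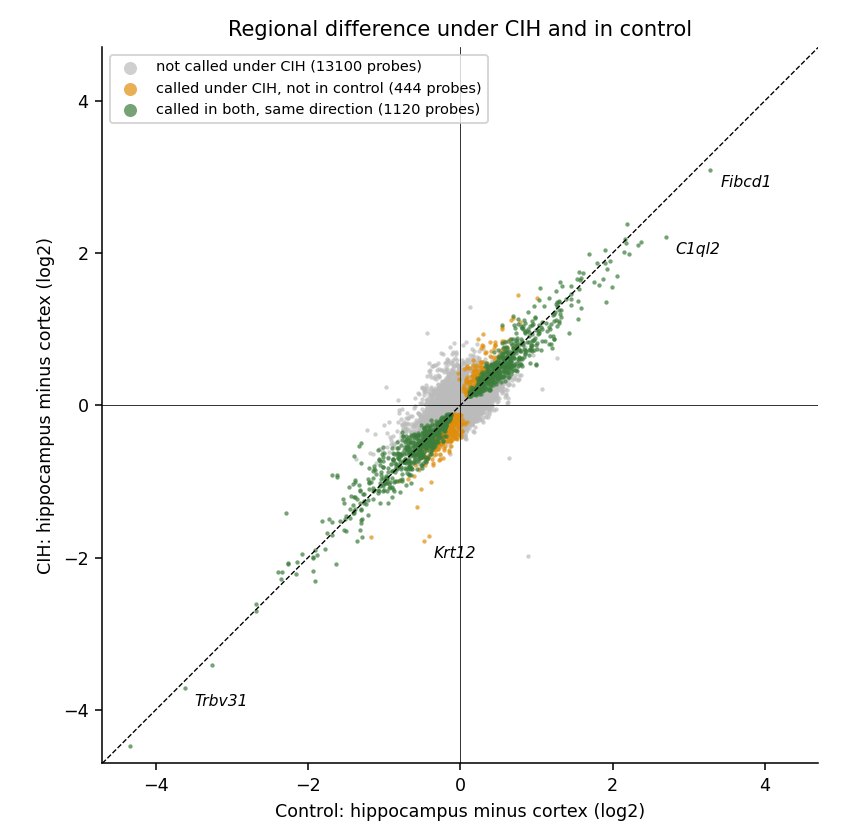
Regional difference (hippocampus minus cortex, log2) of all 14664 probes in control mice (horizontal axis) and under CIH (vertical axis). Green probes were called the same way in both (1120), orange ones under CIH and not in control (444), grey ones not under CIH, and the dashed line marks equal differences. The green points follow the line from Trbv31 to Fibcd1, and Krt12 lies off it.

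The probes called under CCH give a set whose differences come from arrays outside the CIH and control comparisons, although the estimate of the spread is shared. High Xist was not balanced between the CCH regions, and its part in this choice of probes was not tested. For the 1002 probes higher in hippocampus under CCH the median difference was 0.26 under CIH and 0.34 in control, and 914 (91.2%) and 975 (97.3%) of them had the same sign. For the 1089 probes higher in cortex the medians were −0.32 under CIH and −0.35 in control, with the same sign in 1028 (94.4%) and 1053 (96.7%). The hippocampal set therefore had a smaller median under CIH than in control, with a median change of −0.0596, and the median change of the cortical set was 0.0189. Over all probes the regional differences under CIH and in control correlated at r = 0.828 (Spearman 0.591). This is a description across probes that are not independent and that share array positions.

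The named genes with the smallest p for the change from control were led by Krt12. Krt12 encodes a keratin best known from the cornea. It read 9.13, 9.06 and 8.13 on the CIH cortex arrays and 6.995, 7.18 and 7.03 on the control cortex arrays, so all 3 CIH cortex arrays were higher than all control cortex arrays. In hippocampus it read 7.14, 7.02 and 6.84 under CIH and was not well above background on any control array. Its regional difference was −1.77 under CIH, −0.47 in control and −0.62 under CCH, and in control the cortex was at least 1.26-fold higher. The fitted change from control was −1.30 (−1.98 to −0.63, unadjusted p = 0.00101, adjusted p = 0.9995). As control hippocampus was at background, −0.47 and −1.30 rest on a floor value and do not measure the size of the change. A promoter window of Krt12 is shown as the region beside this change, together with that of Prox1, whose regional difference was called in all 3 conditions. Windows holding the TATA box core given next were taken where a gene had any, so its presence in them was fixed by this choice. Each sequence runs from 250 bases before the start site to 50 after it, with the TATA box core TATAAA, read on either strand, in capitals (RefSeq, GRCm38.p6).
Krt12, chr11:99422210-99422509, minus strand: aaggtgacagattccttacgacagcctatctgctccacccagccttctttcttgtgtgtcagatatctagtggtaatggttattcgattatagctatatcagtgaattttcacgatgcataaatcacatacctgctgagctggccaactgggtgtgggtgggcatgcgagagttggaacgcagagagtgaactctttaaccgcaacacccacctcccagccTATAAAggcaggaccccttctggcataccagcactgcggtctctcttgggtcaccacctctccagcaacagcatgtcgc
Prox1, chr1:190170778-190171077, minus strand: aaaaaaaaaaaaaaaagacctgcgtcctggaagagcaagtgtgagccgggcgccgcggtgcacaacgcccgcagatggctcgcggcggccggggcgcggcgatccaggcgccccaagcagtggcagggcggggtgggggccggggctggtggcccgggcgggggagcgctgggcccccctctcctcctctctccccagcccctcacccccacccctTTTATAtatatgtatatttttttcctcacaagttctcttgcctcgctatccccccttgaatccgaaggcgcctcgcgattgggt

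The Krt12 window holds the core on the gene's own strand, beginning at position −29 from the start site, and the Prox1 window holds it only on the opposite strand. Of all 32851 RefSeq promoter windows of 300 bases, 13.6% hold these letters on either strand. The 27 genes named for size that had a window have 40 windows, of which 9 hold them, in 8 genes. A match of letters is a description and not a site in use.

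Among the first 5 of that ranking were also immediate early genes, with regional differences of opposite sign and changes from control of the same sign. Fosl2, a subunit of the AP-1 transcription factor, was higher in hippocampus by 0.94 under CIH (8.80, 8.79 and 8.67 against 7.68, 7.93 and 7.84) and by 0.86 under CCH. In control it differed by 0.30 and did not pass (8.59, 8.74 and 9.05 against 8.50, 8.43 and 8.54). The cortex arrays were those that were lower under CIH than in control, and the hippocampus arrays overlapped. Egr2, a zinc finger factor induced by activity, was higher in cortex in control, with a difference of −1.33 (6.74, 6.70 and 6.80 against 8.46, 7.79 and 7.995). Under CIH the difference was −0.54 (6.63, 6.66 and 6.71 against 7.08, 6.96 and 7.58). Again the cortex arrays were the lower ones, with all 3 CIH values under all 3 control values, and the call under CIH was lost when any of 5 single arrays was left out (adjusted p up to 0.165, without CIH cortex 3) and without the arrays with high Xist (adjusted p = 0.111). By limma the changes from control were 0.63 for Fosl2 (0.27 to 0.99) and 0.80 for Egr2 (0.33 to 1.27), with unadjusted p-values of 0.00204 and 0.00262 and an adjusted p of 0.9995 for both. The hippocampus values of Egr2 lay near or below the lowest detected signal of an array, which was 6.68 to 6.765. Its differences and the size of its change therefore rest on values at a floor.

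The other 7 genes of that ranking changed by less. Upf2, of nonsense-mediated decay, had a difference of 0.42 in control and −0.02 under CIH. Wnk1, a kinase of ion transport, had −0.36 and 0.08, and Cox15, which makes heme A for cytochrome oxidase, had 0.48 and −0.05. Timm21, of mitochondrial protein import, had 0.37 and −0.04, but its second probe had 0.028 in control and 0.029 under CIH. Rcan3, a regulator of calcineurin, had 0.02 in control and −0.33 under CIH. H2-Bl, a class I histocompatibility gene whose probe may share signal with its family, was above background on no hippocampus or cortex array in control and on no CIH hippocampus array, and in CIH cortex it was at least 1.07-fold higher. Its change therefore has no measured size. Cntnap2, an adhesion protein of the neurexin family, had −0.68 in control and −0.17 under CIH, but its second probe read 0.35 under CIH, so its probes disagree in sign.

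**Figure D4:**
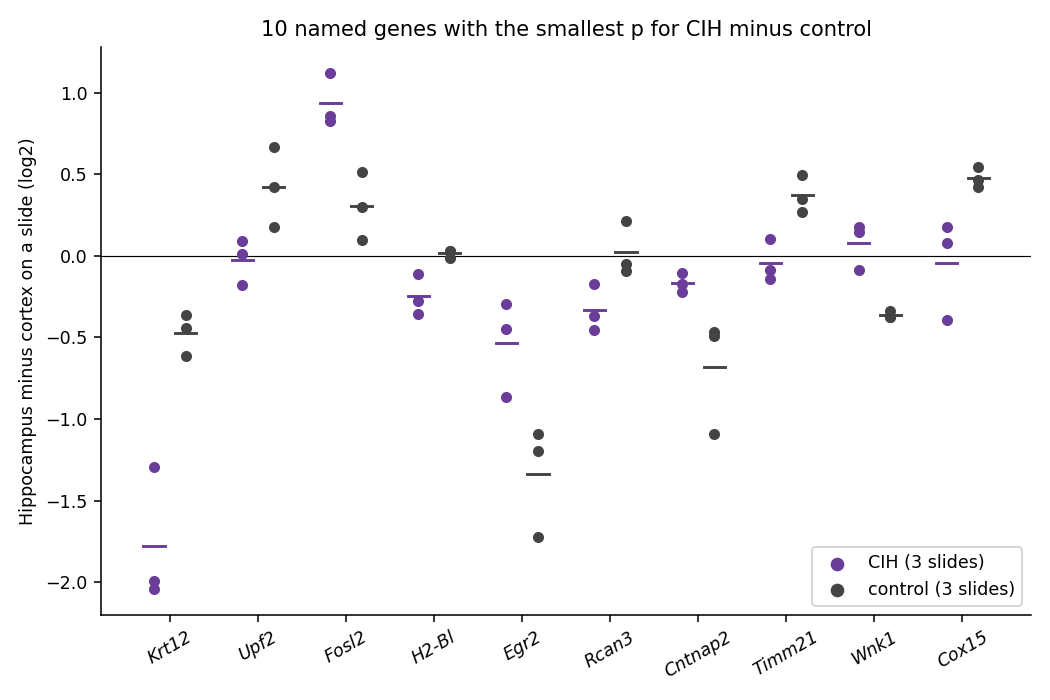
Hippocampus minus cortex (log2) on each of 3 slides, under CIH (purple) and in control (grey), for the 10 named genes with the smallest unadjusted p for the change between these conditions. Dots are slides and bars are means of 3. The purple and grey dots do not overlap in any of the 10 genes, which were chosen for this change, and none passed the test after adjustment.

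Genes called under CIH with the smallest difference in control were a weak group. All 10 were lower in hippocampus under CIH, by −0.13 to −0.42, while in control they lay between −0.030 and 0.029. Among them Scd2, which makes monounsaturated fatty acids, read 13.68, 13.64 and 13.72 in hippocampus and 13.91, 13.81 and 13.95 in cortex. Tbc1d23, a regulator of vesicle transport, read 9.41, 9.25 and 9.06 against 9.70, 9.78 and 9.50. The regions did not overlap in either, yet the calls of Scd2 and Tbc1d23 were lost when any of 4 single arrays was left out (adjusted p up to 0.11 and 0.103). Both were also lost without the arrays with high Xist (adjusted p = 0.108 and 0.145), as were the other 8. Rcan3 kept its call with any single CIH array left out (adjusted p up to 0.0358), and the rest lost theirs without several single arrays. They were selected for this contrast, so it is a description.

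Against CCH the regional difference under CIH was also tested. No probe was called, the smallest adjusted p was 0.113, and 1275 probes (8.70%) had an unadjusted p under 0.05. One named gene, Rgs8, which shortens G protein signals, was called in opposite directions: −0.22 under CIH (10.66, 10.57 and 10.56 against 10.72, 10.86 and 10.86) and 0.26 under CCH (10.48, 10.46 and 10.54 against 10.15, 10.21 and 10.36). In control its difference was 0.048. Its change between the 2 kinds of hypoxia was −0.48 (unadjusted p = 0.00016, adjusted p = 0.439). Next came Frmd4a, a scaffold of cell polarity, with 0.00 under CIH and 0.37 under CCH, and Gstk1, a glutathione transferase of mitochondria and peroxisomes, with −0.044 and 0.55. Eif5, a factor of translation start, had 0.18 and −0.26, and Mtch2, of the outer mitochondrial membrane, had 0.24 and −0.33. Of the 10 genes ranked by this change, Rgs8, Cinp and Armc8 were called under CIH, Cinp at −0.43 and Armc8 at 0.28. These 3 calls were not tried with arrays left out. With the arrays of high Xist left out this count rose to 95 probes, in a fit where CCH cortex rests on 1 array that is assumed to vary like the other groups.

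Marker lists were used to check the labelled tissues. The counts of these and all lists below stand beside 10.7% of all probes called, 4.62% higher in hippocampus and 6.04% higher in cortex. All 11 hippocampal field markers that passed the filter were called higher in hippocampus, in every one of the 3 conditions, with a median of 1.28 under CIH, 1.32 in control and 1.64 under CCH. The list has 50 genes, and 39 could not be measured here. Only 7 of the 11 were detected on all 6 CIH arrays, so some passed the filter through hippocampus alone and had to differ. With probes detected on all 18 arrays, 7 remained and 7 were called. Beside the genes above, Bok, an apoptosis protein of the Bcl-2 family, was 2.42-fold higher, and Amigo2, an adhesion protein of CA2 and CA3, 2.05-fold. Pkp2, a desmosomal plakophilin, was not above background in cortex and was at least 1.98-fold higher. The calls of Epha7 and Iyd were lost without the arrays with high Xist (adjusted p = 0.0838 and 0.104), and that of Iyd also when any of 4 single arrays was left out.

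Cortical layer markers went both ways. Of 18 measured, 7 were called higher in cortex and 5 higher in hippocampus, against 10.7% of all probes called. Their median was −0.22. Cux2, a factor of upper-layer neurons, was 2.04-fold higher in cortex (7.03, 7.02 and 7.20 against 7.89, 8.35 and 8.08), and Rorb, of layer 4, had a difference of −0.55. Whrn, a scaffold protein, was 2.18-fold higher in cortex. Those higher in hippocampus include genes known to be active in both regions. Bcl11b, a factor of deep-layer neurons that dentate granule cells also need, had a difference of 0.50, and Hsd11b1, which regenerates active glucocorticoid, had 0.93. Foxp1 was called higher in cortex at −0.54, but its call was lost when any single CIH array was left out and without the arrays with high Xist (adjusted p = 0.112).

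Some striatal genes were higher in the cortex samples. Of 5 striatum markers out of 20 that passed the filter, 4 were called higher in cortex, in control and under CCH as well. Only 3 of the 5 were detected on all 3 CIH hippocampus arrays, so members such as Ido1 passed through cortex alone. With probes detected on all 18 arrays, 2 remained and both were called. Their mean log2 level was 9.25 to 9.38 on the CIH cortex arrays and 8.04 to 8.26 on the CIH hippocampus arrays, with a median difference of −1.28. Drd1, the dopamine receptor of striatal output neurons, read 8.76, 8.92 and 8.88 in cortex and 6.80, 6.76 and 6.84 in hippocampus (−2.05). Its hippocampus values lay close to the lowest detected signal of an array, 6.68 to 6.765, so the size of this difference rests on values near a floor. Pde1b, a calmodulin-dependent phosphodiesterase, was 2.82-fold higher in cortex and Adcy5, the main striatal adenylyl cyclase, 2.43-fold. Ido1, which breaks down tryptophan, was above background in cortex only and at least 1.72-fold higher there. The fifth, Ebf1, had −0.078 and did not pass. Cortex also expresses several of these genes, and the part of neighbouring striatum in the cortex samples was not tested. Of 5 measured thalamus markers, Rora was called higher in cortex (−0.88), a call lost without CIH cortex 3 (adjusted p = 0.0548), and Tcf7l2, a factor of thalamic neurons, had −0.50 and did not pass.

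Glial and vascular lists were small, and their counts stand against 10.7% of all probes called. No gene was called among 3 measured microglial, 4 endothelial, 4 choroid plexus, 1 oligodendrocyte precursor and 4 proliferation genes, and no mural gene could be measured. None of these had an unadjusted p under 0.05 either. Choroid plexus genes varied most, with a mean level of 6.87 to 8.08 over the CIH hippocampus arrays. Of 12 myelin genes, 3 were called higher in cortex and 1 higher in hippocampus, with a median of −0.29 under CIH, −0.22 in control and −0.33 under CCH. Trf, the iron carrier transferrin made by oligodendrocytes, was 2.06-fold higher in cortex (7.62, 8.22 and 7.91 against 8.74, 8.90 and 9.25). Padi2, which converts arginine to citrulline in proteins, was higher in hippocampus by 0.51. The calls of Evi2a and Fa2h were lost without the arrays with high Xist (adjusted p = 0.241 and 0.0681). Evi2a was also lost when any of the 6 single CIH arrays was left out and Fa2h when any of 3 was (adjusted p up to 0.168 and 0.115), and Evi2a with the slide as a block (adjusted p = 0.0597). Of 8 astrocyte genes, Aqp4, the water channel of astrocyte endfeet, was called at 0.60 and Id3 at 0.33, both higher in hippocampus. The Aqp4 call was lost without CIH hippocampus 1 (adjusted p = 0.0514) and without the arrays with high Xist (adjusted p = 0.0535), and Id3 without any of 3 single arrays (adjusted p up to 0.104).

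Genes of young neurons were higher in hippocampus or did not pass. Of 12 measured, 5 were called higher in hippocampus and none in cortex, against 4.62% and 6.04% of all probes. The list's median was only 0.038. Tubb2b, a tubulin of migrating neurons, read 8.81, 9.86 and 9.23 in hippocampus and 7.78, 7.82 and 8.14 in cortex, a 2.61-fold difference with a wide spread. Nnat, the imprinted gene neuronatin, was 2.03-fold higher (7.88, 8.16 and 8.27 against 7.13, 7.02 and 7.11). Sox11, a factor of newborn neurons, had a difference of 0.33. In control these differed by 1.03, 0.82 and 0.31. Calb2 and Dpysl3, at 0.54 and 0.52, lost their call without the arrays with high Xist (adjusted p = 0.209 and 0.16). Calb2 was also lost without any of 4 single arrays (adjusted p up to 0.128) and Dpysl3 without CIH cortex 2 (adjusted p = 0.0596). Of 26 developmental transcription factors 14 were called, 7 in each direction, as in control. Beside Prox1, Zbtb20 and Bcl11b, Tcf4, a partner of proneural factors, was higher in hippocampus (0.51), and Cux1, of upper layers, was at least 1.21-fold higher in cortex.

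Guidance and adhesion genes were called on both sides. Of 19 guidance genes, 5 were called higher in hippocampus and 1, Efna5, in cortex, against 4.62% and 6.04% of all probes. Sema5a, a semaphorin with thrombospondin repeats, had a difference of 0.75 under CIH and 0.93 in control. Robo1 and Epha4, receptors for Slits and ephrins, had 0.50 and 0.88, and their calls were lost when single arrays were left out (adjusted p up to 0.0924 and 0.0624), that of Epha4 also without the arrays with high Xist (adjusted p = 0.0935). Of 12 cadherins, Pcdh10 (−0.82), Cdh13 (−0.997) and Cdh7 (at least 1.22-fold) were higher in cortex and Pcdh20 in hippocampus. Cdh2 had 0.27 under CIH, 0.19 in control and 0.00 under CCH, and its call was lost under most alternatives. Among Wnt, BMP and FGF genes, Fgf10, a secreted growth factor, was 2.16-fold higher in hippocampus (8.05, 8.09 and 7.90 against 6.91, 6.98 and 6.83).

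Channels and receptors made up the electrical side of the difference. Of 16 potassium channel genes, 6 were called higher in cortex and 2 in hippocampus, against 6.04% and 4.62% of all probes. Kcnt1, a sodium-activated channel, had −0.96 (7.42, 7.52 and 7.15 against 8.06, 8.65 and 8.27), and Kcna6, a delayed rectifier, −0.68. Kcnn2, a small-conductance calcium-activated channel, was higher in hippocampus at 0.83. Of 14 sodium, calcium and cyclic nucleotide-gated channel genes, 2 were called higher in cortex and 2 in hippocampus. Cacna2d2, a calcium channel subunit, was 2.23-fold higher in cortex (8.35, 8.52 and 8.53 against 9.43, 9.63 and 9.83), and Scn1a, a sodium channel strong in fast-spiking interneurons, had −0.75. Cacnb2 and Scn3b were called higher in hippocampus, and both calls were lost without the arrays with high Xist (adjusted p = 0.1405 and 0.1316). Of 8 glutamate receptor genes, Gria1, the AMPA receptor subunit of CA1 plasticity, was 2.60-fold higher in hippocampus (11.02, 11.01 and 11.23 against 9.67, 9.67 and 9.78). Cacng3, an AMPA receptor partner, was 1.77-fold higher in cortex. Grin1 and Grm8 had −0.25 and −0.34, and their calls were lost when any of 4 or 5 single arrays was left out, that of Grin1 also without the arrays with high Xist (adjusted p = 0.105). None of the 3 measured GABA and glycine receptor genes was called by limma, and 0 had an unadjusted p under 0.05. Of 10 receptors for monoamines, acetylcholine and peptides, Cckbr and Drd1 were higher in cortex, and Chrna5, not above background on any CIH cortex array, was at least 1.01-fold higher in hippocampus. Its call was lost without either of 2 single arrays (adjusted p up to 0.0538) and without the arrays with high Xist (adjusted p = 0.13).

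Calcium and synapse genes were split between the regions. Of 22 genes of calmodulin, CaMK, PKC and PKA signalling, 6 were called higher in hippocampus and 8 in cortex. Over all probes the shares were 4.62% and 6.04%. Hpca, the calcium sensor hippocalcin, was 2.38-fold higher in hippocampus (12.84, 12.95 and 13.08 against 11.73, 11.58 and 11.80). Vsnl1, a related calcium sensor, was higher in cortex at −0.49 under CIH and −0.13 in control, where it did not pass (change −0.35, −0.64 to −0.06, adjusted p = 0.9995). Of 22 vesicle and scaffold genes, 4 were called higher in hippocampus and 3 in cortex. Doc2b, a calcium sensor of spontaneous release, was 2.51-fold higher in hippocampus, and Syn2, a synapsin of vesicle pools, 1.57-fold.

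**Figure D5:**
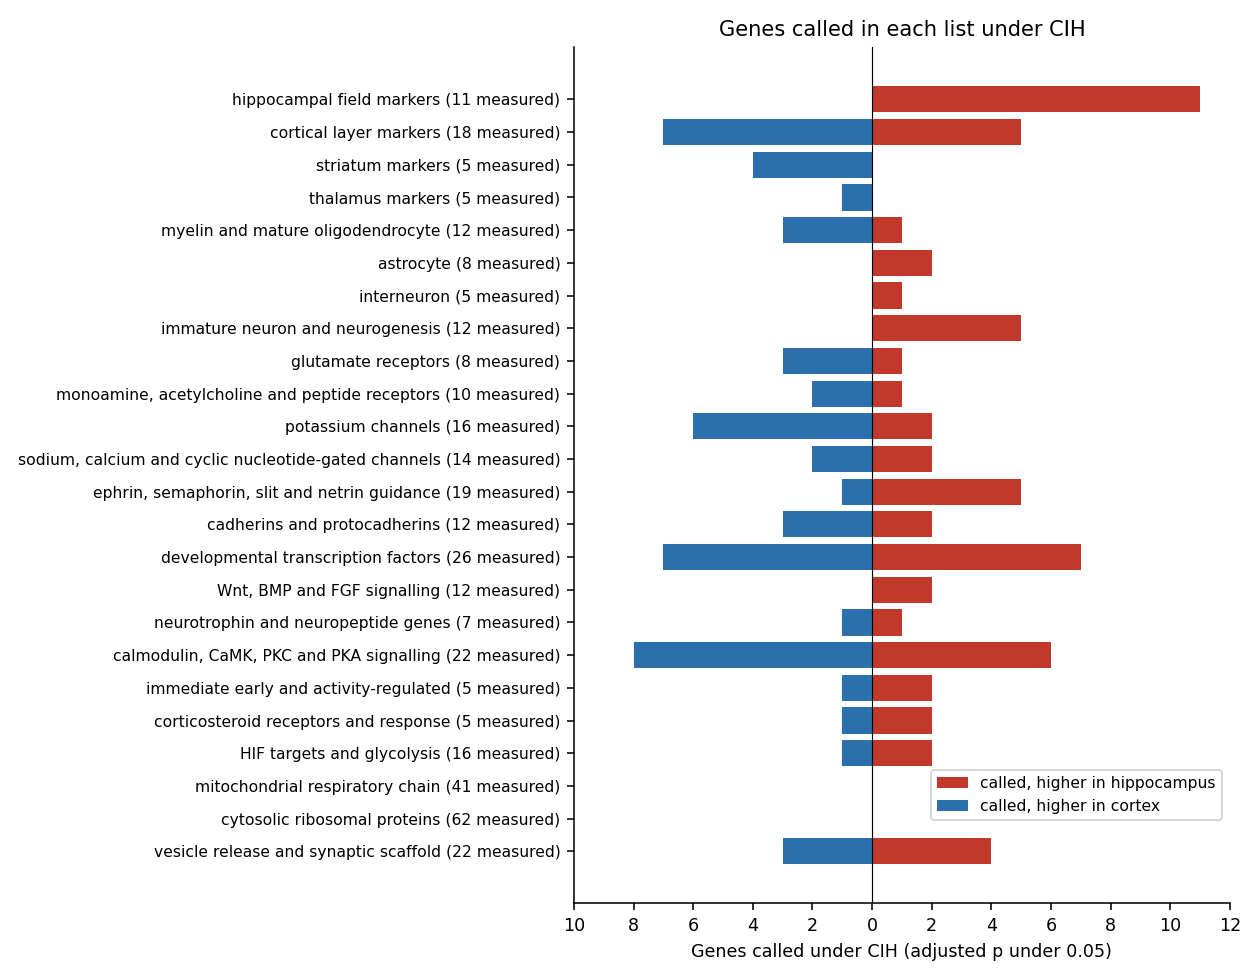
Number of genes called under CIH in each list with at least 5 measured genes, higher in hippocampus (red, right) and higher in cortex (blue, left). The bars count genes at an adjusted p under 0.05 and the number measured stands beside each name. Of all probes tested, 10.7% were called. Hippocampal field markers lie wholly to the right (11) and striatum markers wholly to the left (4), while the 41 respiratory chain and 62 ribosomal protein genes have none.

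Genes of oxygen sensing and glycolysis went both ways. Of 16 measured, 2 were called higher in hippocampus and 1 in cortex, against 10.7% of all probes called, and their median was 0.065. Pfkfb3, which makes the activator of phosphofructokinase, had 0.56 (9.78, 9.69 and 9.54 against 9.06, 9.002 and 9.28). Egln3, an oxygen-dependent prolyl hydroxylase that marks HIF for destruction, had −0.26. The call of Pfkl, the liver form of phosphofructokinase, at 0.47 was lost without the arrays with high Xist (adjusted p = 0.0797). None of 41 respiratory chain and none of 62 cytosolic ribosomal protein genes was called in limma under CIH, and their medians were −0.0027 and 0.069. In each of these lists 3 genes had an unadjusted p under 0.05. The 3 hemoglobin genes, which reflect blood in the tissue, had a median of −0.16. None was called by limma, 1 had an unadjusted p under 0.05, and their mean level was lower in hippocampus on each slide (9.91, 9.72 and 10.02 against 10.26, 9.82 and 10.15). One of them, Hba-a1, was called higher in cortex in control (−0.50) and under CCH (−0.50) and had −0.36 under CIH. Of 5 corticosteroid response genes, Hsd11b1 was higher in hippocampus, and the calls of Zbtb16 at 0.18 and Cdkn1a at −0.60 were lost without the arrays with high Xist (adjusted p = 0.0792 and 0.0598), that of Zbtb16 also without any of 3 single arrays (adjusted p up to 0.0984). Of 7 neurotrophin and neuropeptide genes, Adcyap1, which encodes the peptide PACAP, was higher in cortex at −0.73, and the call of Ntrk3 at 0.48 was lost when any of 5 single arrays was left out (adjusted p up to 0.139) and without the arrays with high Xist (adjusted p = 0.11).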

How the data were processed

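Total RNA of whole cortex or hippocampus was labelled with biotin, from 100 ng, and measured on Illumina Mouse-6 bead arrays, per the labels' protocols. The authors deposited an export of probe intensity and a detection score for each array, made with BeadStudio, given as version 2.0 per the submitters' processing notes and as 1.5.1.3 per the file headers. The lowest deposited intensity was 36.5. The authors also deposited series values, which are intensity less a constant for each array, except that nothing was subtracted for control cortex 2. A further 108 columns of these arrays in the export, such as bead numbers and standard deviations, were not used. Array number and signal over background limit the precision.

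The 81 control probes were left out. Intensities were background-corrected with limma's neqc (normexp by detection p, taken as 1 minus the deposited score, offset 16), quantile-normalised and put on the log2 scale, as the authors deposited no log2 values. The filter kept probes whose score exceeded 0.99 on 3 or more of the 18 arrays. The array key was not used here: a probe was named by reading the number in its identifier as an NCBI gene ID in the RefSeq table of GRCm38.p6. Of 11897 such numbers, 82.6% matched, against 46.0% and 46.2% after a shift by 1. Coordinates come from that RefSeq table alone.

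One limma model (version 3.58.1, R 4.3.3) with a mean for each of the 6 groups was fitted to all 18 arrays, with Benjamini-Hochberg adjustment over 14664 probes, and calls were made where the adjusted p was under 0.05. All p-values are two-sided. An exact permutation test of 3 against 3 arrays could not go below p = 0.1, so none was run. The replicate number is the slide. Under CIH, deviations from the group means correlated at 0.431, 0.366 and 0.310 between arrays of the same slide, and at −0.391 to −0.001 between slides. Under CCH the same-slide values were 0.284, 0.269 and 0.210. In control they were 0.286, 0.245 and −0.271, and a pair from unlike slides reached 0.314, so the numbers do not clearly pair those arrays. Deviations within a group sum to 0, so positive values within slides pull those between slides down. The slide was tried as a block. Where a gene was undetected on every array of a group, "at least" compares the other group with the lowest detected signal.

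Named genes were the 15 largest called rises and falls without overlap between arrays, called members of 34 gene lists, the 10 smallest p for each change between conditions, and the 10 called under CIH with the smallest difference in control. The comparison, the members and the lists were chosen with earlier results of these data known. The alternatives were median scaling, no background correction, no filter, detection on all 18 arrays, the deposited series values, the slide as a block, only the groups compared, leaving out each array, and leaving out the arrays with high Xist. The fit was tested on simulated data.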

Additional observations from a re-analysis of the deposited data

Results flagged for a closer look

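The neurotrophin and neuropeptide list, with 7 measured genes, had a median regional difference above 0 on each of the 3 slides under CIH and below 0 on each slide in the other conditions. The log2 medians were 0.0332, 0.0823 and 0.0095 under CIH, −0.0245, −0.0186 and −0.0556 in control, and −0.0346, −0.0299 and −0.0628 under CCH. The difference between the conditions was not tested, and all 9 medians were small. The median change over the single genes had the opposite sign, at −0.0461 from control and −0.0612 from CCH.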

How the results depend on the processing

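Not every called gene was followed through the alternatives. None of the 128 gene results under CIH that were followed changed direction in a setting that held its probe. On the deposited series values, with fewer probes tested, the calls fell to 191 under CIH, 504 in control and 302 under CCH, with 143 shared by CIH and control and 121 by all 3 conditions. With only the groups compared in the fit, and so fewer arrays behind the spread, CIH had 1243 calls, control 1135 and CCH 1201. Of these, 698 were shared by CIH and control and 508 by all 3. Without the arrays with high Xist, 954 probes were called under CIH, 536 were called the same way in all 3, and the change between CIH and CCH was called for 95. Median scaling gave 2 calls for that change. The cause was not tested. Leaving out 1 array gave 1129 to 1321 calls under CIH, 1219 to 1707 in control and 1391 to 1912 under CCH (1391 without CCH hippocampus 2). It gave 897 to 1091 calls shared by CIH and control and 768 to 1009 by all 3, 0 for the change from control, and 0 to 1 for the change from CCH (1 without CCH cortex 2). With the slide as a block there were 1803 calls under CIH, 1905 in control, 2408 under CCH, 0 for either change, 1226 shared by CIH and control and 1038 by all 3, and 1524 of the 1564 calls under CIH held. Among the 128 gene results the block ended the calls of Evi2a and Leng9 (adjusted p = 0.0597 and 0.0566) and changed no other call. The share of calls under CIH that were higher in hippocampus ranged from 38.8% to 47.3%. Of 128 gene results under CIH, 57 were called in every setting that held their probe. Some of the 57 were not tried in all settings. Drd1 and Krt12, for example, were tried in 12 settings and Fibcd1 in 14. The settings without a probe were the deposited series values and the set detected on every array, so these 2 genes were not tried there.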
